A study of Homo sapiens with 8 samples.

Results

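The genes described here encode the proteins of the cytosolic ribosome. They were taken as the protein-coding genes of GENCODE release 44 on the human genome build GRCh37 whose symbol is RPL or RPS with a number and an optional final A, X or L, together with RPLP0, RPLP1, RPLP2 and RPSA, which gave 81 of 20090 protein-coding genes. The rule used names alone and no measured value. HL-60, a cell line derived from a human promyelocytic leukemia, turns granulocytic under all-trans retinoic acid (ATRA). Cells received 1 µM ATRA or the same volume of its solvent ethanol for 4 days, and chromatin carrying trimethylated lysine 4 of histone H3 (H3K4me3) or acetylated lysine 27 of histone H3 (H3K27ac) was precipitated and sequenced. Each mark was measured in 2 ATRA and 2 control libraries, 8 libraries in all. All of them came from this single leukemia line, and normal blood cells were not part of the comparison. The values are the positions of broad peaks called in each library, without read counts, so the sequencing depth is unknown and the precision is limited by the 2 libraries per condition.

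A ribosome has a small subunit, which decodes the mRNA, and a large subunit, which joins the amino acids and carries a stalk built from RPLP0, RPLP1 and RPLP2 that recruits translation factors. The mRNAs of most ribosomal proteins start with an uninterrupted run of pyrimidines, the terminal oligopyrimidine (TOP) motif, through which the growth-control kinase mTOR regulates their translation. H3K4me3 marks active promoters and spreads over the start of transcribed genes, and H3K27ac marks active promoters and enhancers. Among the members, RPL3L, RPL10L, RPL39L and RPS27L are copies of RPL3, RPL10, RPL39 and RPS27. RPL3L is known from muscle, RPL10L and RPL39L from the testis, and RPS27L as a target gene of p53.

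The promoters of these genes shared a feature that the rule did not use. A run of at least 8 pyrimidines (C or T) overlapping the 10 bases on either side of the transcription start site (TSS) was present in 70 of the 81 genes (86.4%), in comparison with 14.9% of all protein-coding genes. The longest such run had a median of 11 bases in the ribosomal protein genes and of 4 bases in all genes. The sequences from 30 bases before to 25 bases after the start of the Ensembl canonical transcript are given in GRCh37, 5′ to 3′ on the strand of the gene, with that longest run in capitals. The first 7 are genes to which the peak data below return, with runs of 10 to 25 bases. The last 3 are copies, whose runs are 3 to 4 bases long.
RPS9 (chr19:54704696-54704750, plus strand): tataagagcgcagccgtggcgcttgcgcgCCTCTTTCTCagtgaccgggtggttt
RPS19 (chr19:42364295-42364349, plus strand): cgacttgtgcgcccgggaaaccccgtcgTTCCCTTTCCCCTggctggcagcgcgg
RPL38 (chr17:72199787-72199841, plus strand): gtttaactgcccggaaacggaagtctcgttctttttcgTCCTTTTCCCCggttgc
RPLP2 (chr11:809937-809991, plus strand): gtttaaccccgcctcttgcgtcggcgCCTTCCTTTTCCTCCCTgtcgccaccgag
RPL23 (chr17:37009950-37010004, minus strand): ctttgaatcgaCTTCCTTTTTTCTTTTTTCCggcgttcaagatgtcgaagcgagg
RPL39 (chrX:118925569-118925623, minus strand): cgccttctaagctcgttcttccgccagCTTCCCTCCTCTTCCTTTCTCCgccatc
RPL7A (chr9:136215043-136215097, plus strand): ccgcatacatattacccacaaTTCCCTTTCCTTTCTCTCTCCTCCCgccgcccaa
RPS27L (chr15:63449652-63449706, minus strand): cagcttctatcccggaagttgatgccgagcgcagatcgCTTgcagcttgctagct
RPL39L (chr3:186857260-186857314, minus strand): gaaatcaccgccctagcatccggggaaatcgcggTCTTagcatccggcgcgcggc
RPL10L (chr14:47120960-47121014, minus strand): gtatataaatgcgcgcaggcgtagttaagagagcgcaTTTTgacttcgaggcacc

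In RPS9, RPL23, RPLP2 and RPL7A the run covers the annotated start base, and in RPL38 it begins at base 9 of the transcript. RPL38 also has a shorter pyrimidine run, printed in lower case, that covers its start base. RPL7A had the longest run of all members with 25 bases, followed by RPL39 with 22 and RPL23 with 20. The 11 members with a run under 8 bases included the 4 copies, RPL3, RPL32, RPS4X, RPL12, RPL36 and RPS3A. These lengths depend on the annotated start, and a start placed a few bases away would give another run.

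Other letters were searched on both strands in the 300 bases from 250 before to 50 after the TSS. CCGGAAG, the core that ETS factors such as GABPA recognize, was present in 34.6% of the ribosomal protein genes, in 14.0% of all genes and in 22.9% of the genes with an H3K4me3 peak at the TSS in all 4 libraries. Read on the opposite strand it is CTTCCGG, which can overlap the pyrimidine run, and with that run masked it remained in 26 members (32.1%), 12.7% of all genes and 20.8% of the genes with a peak. AANATGGC, the core of YY1, was present in 17.3%, 8.11% and 12.5% of these 3 sets. CCAAT was present in 33.3%, 35.9% and 37.2% of the sets, and the E-box CACGTG in 6.17%, 8.74% and 11.0%. TATAAA on the gene's own strand within the 50 bases before the TSS was found in 4 members (4.94%), in 4.15% of all genes and in 1.60% of the genes with a peak, and RPL10L, which had no peak, was one of the 4. A match of letters is a description of the reference sequence, and binding was not measured here.

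The libraries differed in how much they covered. The H3K4me3 libraries held 13241 to 16487 peaks over 47.7 to 63.2 Mb, and the H3K27ac libraries 15457 to 39332 peaks over 28.8 to 86.1 Mb, least in control replicate 1. Of 4 granulocyte genes chosen as markers, 3 had an H3K4me3 TSS peak in both ATRA libraries, and 2 and 1 had one in the control libraries. Of 8 myeloid progenitor genes, 5 to 6 had one in each H3K4me3 library, whereas 0 of 4 T cell and 0 of 3 erythroid genes had one. Of 3 B cell genes, 1 had one in 3 of the 4 libraries, CD79A, which lies downstream of RPS19.

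Almost all ribosomal protein genes carried H3K4me3 at the start site in both conditions. A peak within 500 bp of the TSS on either side was called at 78 of 81 genes (96.3%) in each of the 4 H3K4me3 libraries, and in all 78 it covered the start base itself. Of all protein-coding genes, 52.8% to 54.7% had such a peak. The share did not differ between the conditions (difference of 0 percentage points, exact two-sided permutation test over libraries, p = 1). The genes without a peak were the same in every library, and the copies RPL3L and RPL10L were among them.

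The H3K4me3 peaks at ribosomal protein genes were wide. The median width was 7196.5 and 6598 bp in control replicates 1 and 2 and 6838 and 7059 bp in ATRA replicates 1 and 2. The medians over all protein-coding genes were 5219 and 4564 bp in the control libraries and 5581 and 5589 bp in the ATRA libraries. The median ribosomal protein gene thus lay at percentile 80.0 and 83.0 of all TSS peaks in the control libraries and at 70.8 and 73.8 in the ATRA libraries. These are positions on a common scale and no test of genes against genes was made.

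**Figure D1:**
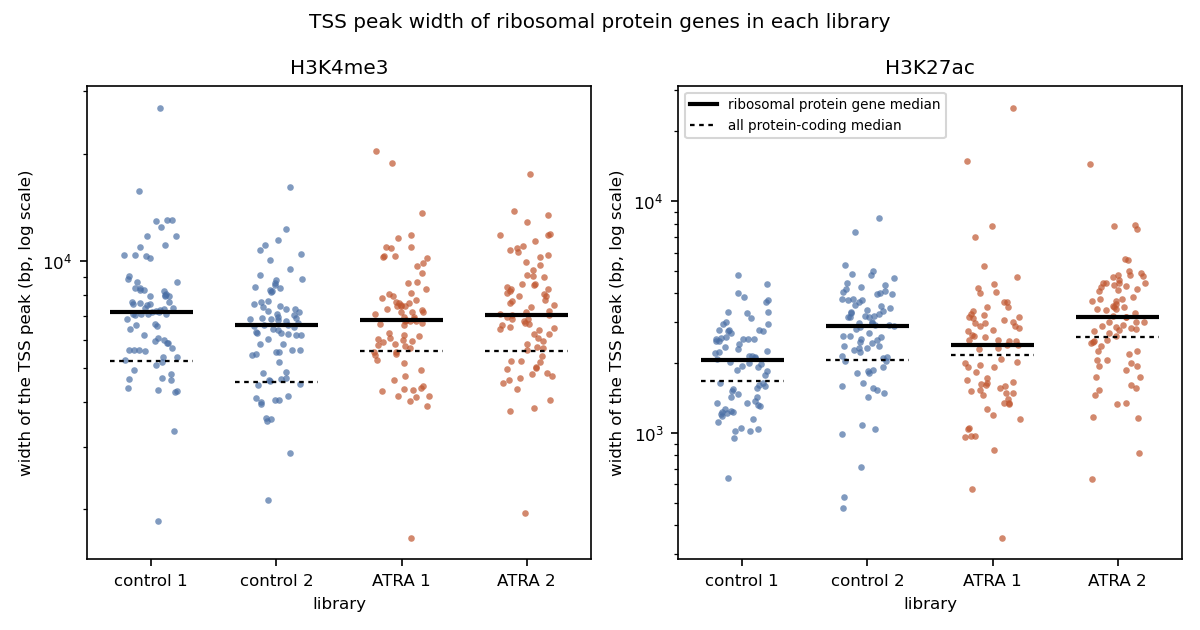
Width of the TSS peak (bp, log scale) of each ribosomal protein gene in each of the 8 libraries, by mark. Each point is a gene, the solid bar is the median of the ribosomal protein genes and the dashed bar the median of all protein-coding genes; the solid bar lies above the dashed bar in every library, by less in the ATRA libraries than in the control libraries.

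The width of the peaks was not spread evenly around the TSS. The median H3K4me3 peak reached 2099.5 and 1557.5 bp upstream of the start in the control libraries and 1914 and 1751 bp in the ATRA libraries. Into the gene it reached 4840 and 4602.5 bp in control and 4723 and 4901.5 bp in ATRA. Over all genes, the upstream reach was 1572 to 2102 bp and the reach into the gene was shorter (2832 to 3348 bp). The side within the gene was the longer one in 91.0% to 93.6% of the ribosomal protein genes and in 73.3% to 76.2% of all genes with a peak. At 3000 bp into the gene, 89.7% to 97.4% of the 78 genes were still under an H3K4me3 peak, in comparison with 45.0% to 63.9% of the other 10454 genes with a peak in all 4 libraries.

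**Figure D2:**
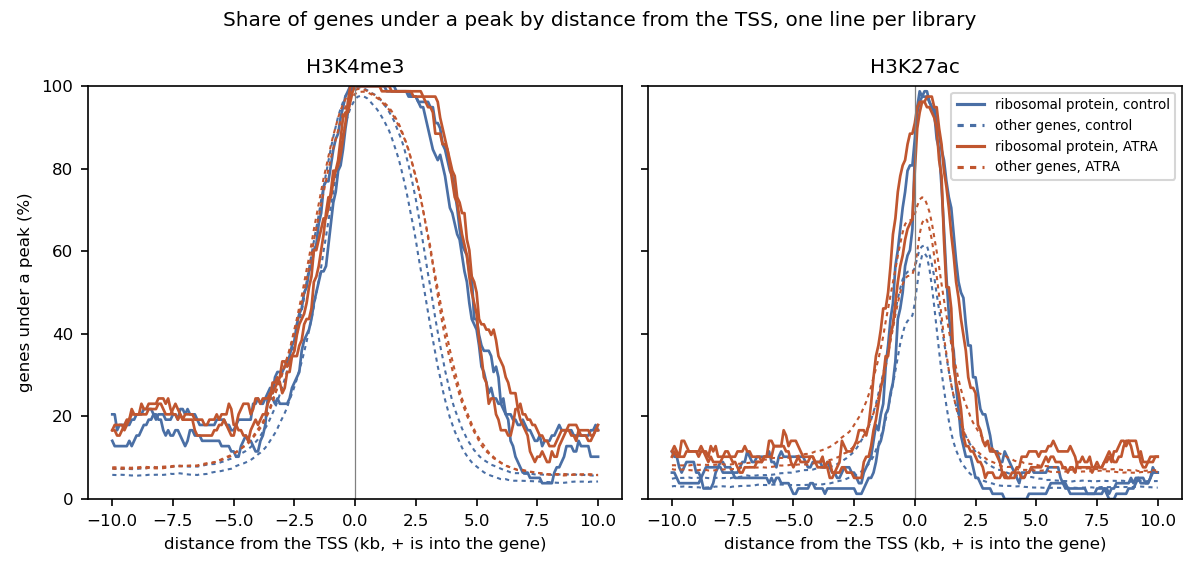
Share of genes under a peak (%) against the distance from the TSS (kb, positive into the gene), with 1 line per library, solid for the 78 ribosomal protein genes and dashed for the 10454 other genes with an H3K4me3 peak in all 4 libraries. At 1000 bp upstream of the TSS the solid H3K4me3 lines stand at 66.7% to 80.8% and the dashed lines at 70.8% to 85.6%, and at 3000 bp into the gene the solid lines stand at 89.7% to 97.4% and the dashed lines at 45.0% to 63.9%.

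Ribosomal protein genes are short, with a median canonical transcript span of 4522 bp (772 to 18549 bp) in comparison with 22744 bp over all protein-coding genes. The H3K4me3 peak ran past the end of the transcript in 43 and 41 members in the control libraries and in 45 and 49 in the ATRA libraries (52.6% to 62.8% of those with a peak), in comparison with 6.04% to 7.98% of all genes. Among the members, the width was not related to the span (Spearman's rho = -0.0060 over 78 genes, a description over genes that share the libraries). It was larger where the peak also held the TSS of another protein-coding gene: the 27 such members had a median of their mean widths of 8393.5 bp and the other 51 of 6467.5 bp. The classes were made from the peaks themselves, and a wider peak is more likely to hold another start. This difference is therefore partly fixed in advance and is no separate result. The 29 members that host a snoRNA, a small RNA that guides the modification of rRNA, had a median of 7280 bp and the other 49 of 6799.75 bp.

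The widest and narrowest peaks show this range. RPL7A, a large-subunit gene in the crowded surfeit gene cluster, had H3K4me3 peaks of 27032 and 16170 bp in control and 18863 and 17552 bp in ATRA, which also held the starts of MED22, SURF1, SURF2 and SURF6 in at least 1 library. RPLP2, a stalk gene, had 13039 and 6512 bp in control and 20386 and 11863 bp in ATRA, with PIDD1, SLC25A22 and PANO1. The replicates of RPLP2 overlapped between the conditions, as the shorter ATRA peak was below the longer control peak. RPS18 and RPL23A were also among the 5 widest, with means over 4 libraries of 12671 and 11834 bp, and both shared their peak with the start of a neighboring gene. At the other end, RPL39L had 1850 and 2121 bp in control and 1665 and 1958 bp in ATRA. RPS27, which encodes a zinc-finger protein of the small subunit, had 3319 and 3535 bp in control and 4035 and 3854 bp in ATRA. RPL36, RPL29 and RPL10 followed, and none of these 5 peaks held another start.

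The H3K4me3 widths of the ribosomal protein genes did not differ between the conditions beyond the spread of the libraries, whereas the medians over all genes were higher in both ATRA libraries than in both control libraries. The median log2 width of the 78 members was 12.81 and 12.69 in control and 12.74 and 12.79 in ATRA, a difference of 0.012 (exact two-sided permutation test over libraries, p = 1). Over the 10532 protein-coding genes with a peak in all 4 libraries it was 12.37 and 12.16 in control and 12.47 and 12.46 in ATRA, a difference of 0.20. That comparison gave p = 0.333, the smallest value that 2 against 2 libraries allow in the exact two-sided test. The difference itself was taken as the member median minus the median of all TSS peaks of the same library, on the log2 scale. It was 0.46 and 0.53 in the control libraries and 0.29 and 0.34 in the ATRA libraries, lower by 0.18 with ATRA, without overlap between the conditions (exact two-sided permutation test, p = 0.333).

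Gene by gene, 15 of the 78 members (19.2%) were wider in both ATRA libraries than in both control libraries, in comparison with 42.2% of all genes tested, and 6 (7.69%) were narrower, in comparison with 4.68%. The other 57 overlapped between the conditions. When the median log2 width of all TSS peaks was first subtracted in each library, 3 members were wider (18.3% of all genes), RPL38, RPS9 and RPS27L, and 40 were narrower (51.3% of members, 24.6% of all genes). The count in each direction therefore depends on that scaling. Within replicate numbers, that is with the libraries paired, 23 members (29.5%) were wider in both pairs, in comparison with 54.8% of all genes, and 11 (14.1%) were narrower in both, in comparison with 8.34%. None of the members gained a peak in both ATRA libraries from neither control library (0.309% of all genes) or lost one in the opposite sense (0.0996%). Of 43 large-subunit genes, 9 were wider and 4 narrower, and of 30 small-subunit genes, 5 were wider and 2 narrower, whereas 0 of the 3 stalk genes were either.

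The members with the largest changes among those that did not overlap were led by a copy. RPS27L had H3K4me3 peaks of 4626 and 4502 bp in control and 7537 and 6641 bp in ATRA (log2 change of the mean width 0.64). The distance between the conditions was larger than that between replicates, and its namesake RPS27 was also wider, by 0.20. RPL38, a large-subunit protein that in mice governs the translation of Hox mRNAs, had 4267 and 3590 bp in control and 5948 and 5217 bp in ATRA (0.51). RPS9 had 8888 and 6796 bp in control and 10913 and 10845 bp in ATRA (0.47). RPL30 (0.26) and RPL9 (0.22), both of the large subunit, were next. Of the members named for their roles, RPS6, whose phosphorylation by S6 kinase reports mTOR activity, was wider with 5866 and 6204 bp in control and 6770 and 6883 bp in ATRA (0.18), and RPL11, which binds MDM2 together with RPL5 when ribosome assembly fails, with 5883 and 5486 bp in control and 6171 and 6239 bp in ATRA (0.13). RPS19, the gene most often mutated in Diamond-Blackfan anemia, was wider by 0.14. RPL23, with one of the longest pyrimidine runs, had 7326 and 6268 bp in control and 7336 and 7947 bp in ATRA (0.17), so that ATRA replicate 1 lay barely above control replicate 1. The median change over all genes was 0.17. After subtraction of the library medians RPL11 was among the narrower members. RPS27, RPL30, RPL9, RPS6, RPS19 and RPL23 were then neither wider nor narrower.

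In the opposite direction, RPL3, which lies close to the peptidyl transferase center, had 8414 and 8578 bp in control and 7454 and 7601 bp in ATRA (log2 change -0.17). Its control replicates were close together and above both ATRA replicates. RPS13 (-0.16), RPL26 (-0.14) and RPL13 (-0.13) were also narrower. Larger changes rested on 1 library: RPL35A had a peak of 13779 bp in ATRA replicate 2, which reached the starts of IQCG and LMLN, and of 5279 to 5820 bp in the other 3 libraries. RPL41, which encodes the smallest ribosomal protein, had 11088 and 6581 bp in control and 7167 and 5968 bp in ATRA, so that its replicates overlapped.

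The remaining members chosen for their roles overlapped between the conditions. RPLP0 had 11761 and 9469 bp in control and 9700 and 11881 bp in ATRA, and RPLP1 stayed within 7046 to 7185 bp in all 4 libraries. RPSA, which also encodes the laminin receptor precursor, had 5627 and 6675 bp in control and 6617 and 6688 bp in ATRA. RPS14, whose loss contributes to the anemia of the 5q deletion, had 7650 and 7447 bp in control and 7648 and 5705 bp in ATRA. RPL5 had 5984 and 5529 bp in control and 5170 and 7247 bp in ATRA, and RPL22, which is needed for T cell development, 5100 and 4638 bp in control and 4920 and 4999 bp in ATRA. RPL36A had 6176 and 4608 bp in control and 5539 and 4794 bp in ATRA. In each of these genes the widths of the conditions overlapped.

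**Figure D3:**
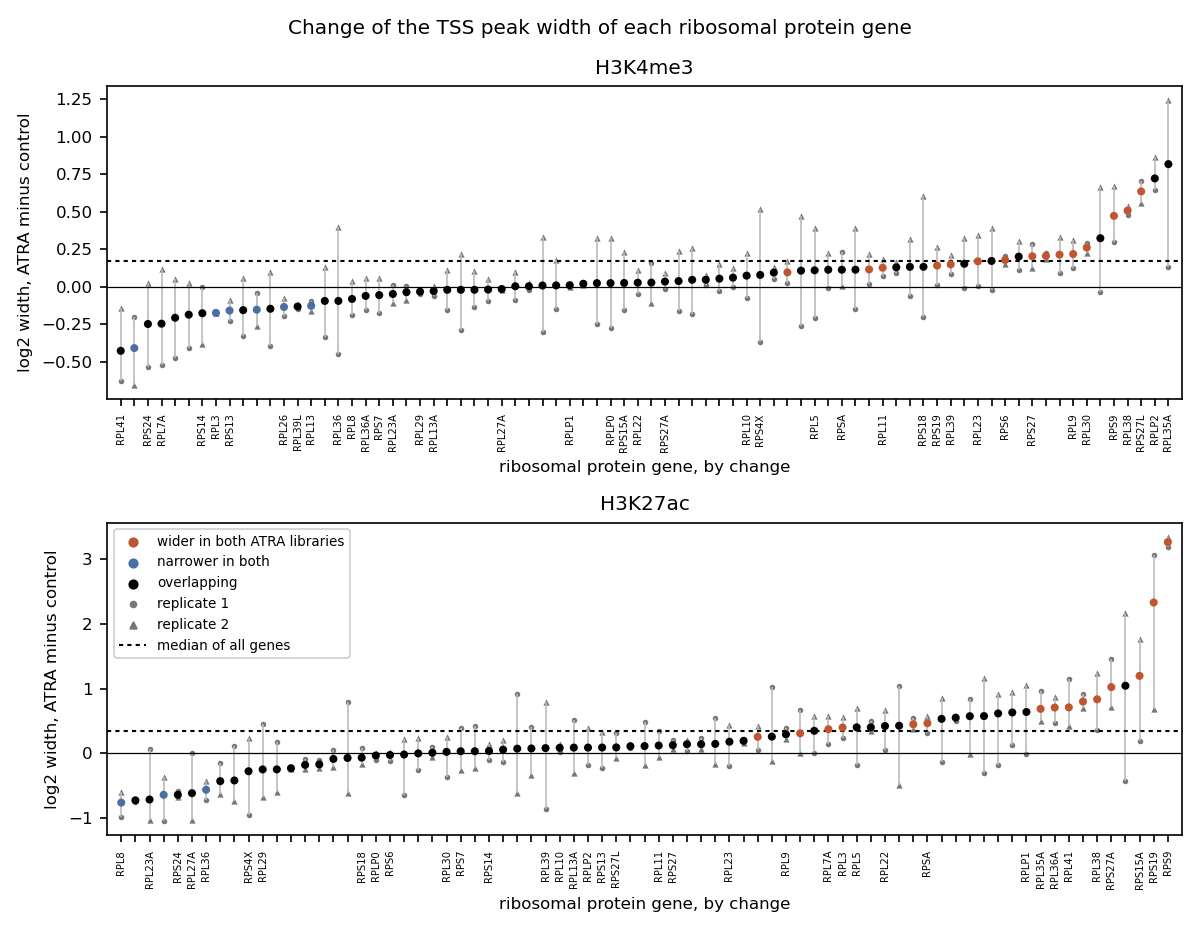
Log2 change of the TSS peak width, ATRA minus control, for each ribosomal protein gene with a peak in all 4 libraries of the mark (78 for H3K4me3, 75 for H3K27ac), in order of the change of the mean width, with some of the genes named below the axis. Small grey points are the changes within replicate numbers 1 and 2, large points the change of the mean, orange where both ATRA libraries were wider than both control libraries (15 and 15 genes) and blue where both were narrower (6 and 3 genes), and the dashed line is the median of all genes; most H3K4me3 points lie below it.

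Other gene lists were set beside the ribosomal protein genes. Of the 78 genes of the mitochondrial ribosome, which translates the few mRNAs of that organelle, all 78 had an H3K4me3 TSS peak in all 4 libraries, with median widths of 5464 and 4796.5 bp in control and 5861 and 5865 bp in ATRA. Of these, 34 were wider (43.6%) and 1 narrower (1.28%), with a median log2 change of 0.17. The 31 proteasome genes had 15 wider (48.4%) and 1 narrower (3.23%) with a median of 0.17. Of 34 translation factor genes and other genes with TOP mRNAs, 33 had the peak in all libraries (EIF3C had none). Of the 33, 19 were wider (57.6%) and 1 narrower (3.03%), and the median change was 0.17. Among 54 genes of ribosome assembly and rRNA synthesis, 16 were wider (29.6%) and 2 narrower (3.70%), with a median of 0.12. The same shares were 19.2% and 7.69% of the ribosomal protein genes and 42.2% and 4.68% of all genes. The ribosomal protein genes had a median change of 0.027 and all genes of 0.17, and the difference between the lists was not tested. Among the 2637 genes with a mean H3K4me3 width of 6793 bp or more, the upper quartile, the median change was 0.14, and it was 0.034 in the 45 ribosomal protein genes among them.

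H3K27ac was found at nearly the same genes and over a shorter stretch. A TSS peak was called at 76 and 78 of 81 members in the control libraries and at 75 and 77 in the ATRA libraries (92.6% to 96.3%), in comparison with 36.7% to 46.3% of all genes. The share was lower by 1.23 percentage points with ATRA, which was within the spread of the libraries (exact two-sided permutation test, p = 0.667). RPL3L and RPL10L had no H3K27ac peak in any library, and RPL39L had one of 531 bp in control replicate 2 only. RPL26 had 3764 bp in control replicate 2 and 1560 bp in ATRA replicate 2 and none in either replicate 1. RPL13 had 1344 and 3173 bp in control, none in ATRA replicate 1 and 636 bp in ATRA replicate 2. No member gained an H3K27ac TSS peak in both ATRA libraries or lost one in both, in comparison with 2.56% and 0.338% of all genes.

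The median H3K27ac width was 2055.5 and 2901 bp in control and 2390 and 3154 bp in ATRA, in comparison with 1670 and 2058.5 bp and with 2173 and 2583 bp over all genes. On the log2 scale, the H3K27ac median minus the H3K4me3 median of the same genes was -1.504 in control and -1.36 in ATRA. The H3K27ac peak lay inside the H3K4me3 peak in 75 of 76 and 65 of 78 genes in the control libraries and in 65 of 75 and 55 of 77 in the ATRA libraries. These shares were 98.7% and 83.3% in control and 86.7% and 71.4% in ATRA, in comparison with 94.0% and 74.3% and with 83.7% and 72.5% over all genes. It was the wider of the pair in 0 and 1 genes in control (RPS27) and in 2 and 3 in ATRA (RPS9 and RPS19, and RPL22, RPS27 and RPS9), or 0% to 3.90% of members, in comparison with 2.09% to 11.2% of all genes. Genes with a wide H3K4me3 peak tended to have a wide H3K27ac peak (Spearman's rho = 0.54, Pearson's r = 0.45 on log2 widths over 75 genes, a description over genes from the same libraries). Like H3K4me3, H3K27ac lay mostly within the gene: the side within the gene was the longer one in 77.9% to 86.8% of members and in 54.9% to 65.3% of all genes.

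H3K27ac widths varied more between libraries than H3K4me3 widths did. The median log2 width of the 75 members with a peak in all 4 libraries was 11.03 and 11.50 in control and 11.22 and 11.63 in ATRA, a difference of 0.17 that was smaller than the distance between replicates (exact two-sided permutation test, p = 0.667). For all 6457 genes with a peak in all 4 libraries the difference was 0.39 (p = 0.333 in the exact two-sided permutation test). The member median minus that of all TSS peaks was 0.32 and 0.49 in control and 0.14 and 0.30 in ATRA, lower by 0.19 with ATRA, and the conditions did not overlap (exact two-sided permutation test, p = 0.333). Of the 75 members, 15 were wider in both ATRA libraries than in both control libraries, in comparison with 36.1% of all genes, and 3 (4.0%) were narrower, in comparison with 4.77%. After subtraction of the library medians, 7 were wider (17.8% of all genes) and 22 narrower (18.8% of all genes). With the libraries paired by number, 27 (36.0%) were wider in both pairs, in comparison with 56.6% of all genes, and 10 (13.3%) were narrower in both, in comparison with 10.7%. Control replicate 1 had the fewest H3K27ac peaks, and without it the difference of the medians was -0.071. Most of these peaks had a low −log10 q. At a −log10 q of at least 5, 9 to 13 members per library kept an H3K27ac TSS peak (11.8% to 16.7% of their peaks, in comparison with 13.0% to 16.4% for all genes), and 73 to 77 kept one of H3K4me3.

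The sides upstream and downstream of the TSS were then compared separately. In the pairs of replicates 1 and 2, the upstream reach of the 75 members was longer in ATRA by a median of 64 and 326 bp, and that of all genes by 170 and 198 bp. Into the gene, the reach of the members was shorter by a median of 12 and 63 bp, whereas that of all genes was longer by 161 and 193 bp. The upstream side was longer in both pairs in 37 members (49.3%, all genes 50.8%) and the side within the gene in 17 (22.7%, all genes 48.2%). For H3K4me3, the side within the gene was longer in both pairs in 27 of 78 members (34.6%, all genes 51.9%) and the upstream side in 18 (23.1%, all genes 44.8%). No test over libraries was made for the separate sides.

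The largest H3K27ac differences were at 2 small-subunit genes on chromosome 19. RPS9 had a TSS peak of 1638 and 1426 bp in control and of 14910 and 14514 bp in ATRA (log2 change of the mean width 3.26). The control peaks ended 1054 and 572 bp into the gene and the ATRA peaks 13112 and 12723 bp into it, past the end of the transcript, which spans 6790 bp. In the 15 kb downstream of the start, 1055 and 1170 bases lay under H3K27ac peaks in control and 13113 and 13166 in ATRA. Upstream, the peak shared by MBOAT7 and TSEN34, whose starts lie at -11295 and -9567 bp from that of RPS9, was 3743 and 3731 bp long in control and 7785 and 6991 bp in ATRA. H3K4me3 at RPS9 was wider as well, as described above, and the H3K27ac replicates of each condition lay close together. Neither ATRA peak passed a −log10 q of 5.

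RPS19 had H3K27ac TSS peaks of 3011 and 2981 bp in control and of 25329 and 4818 bp in ATRA (2.33). The long peak of ATRA replicate 1 was a single call that also held the starts of CD79A, the B cell receptor component, and ARHGEF1, 17024 and 22926 bp downstream. In ATRA replicate 2 the same stretch was covered by 4 separate peaks. The bases under H3K27ac peaks in the 25 kb downstream of the start were 8866 and 10924 in control and 24776 and 22158 in ATRA. By covered bases the ATRA replicates were thus close to each other, in contrast to the widths of the TSS peak. Neither ATRA H3K27ac peak at the RPS19 start passed a −log10 q of 5, and of the control peaks only that of replicate 1 did. The H3K4me3 peak of RPS19 was 6660 and 6444 bp in control and 6697 and 7750 bp in ATRA.

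**Figure D4:**
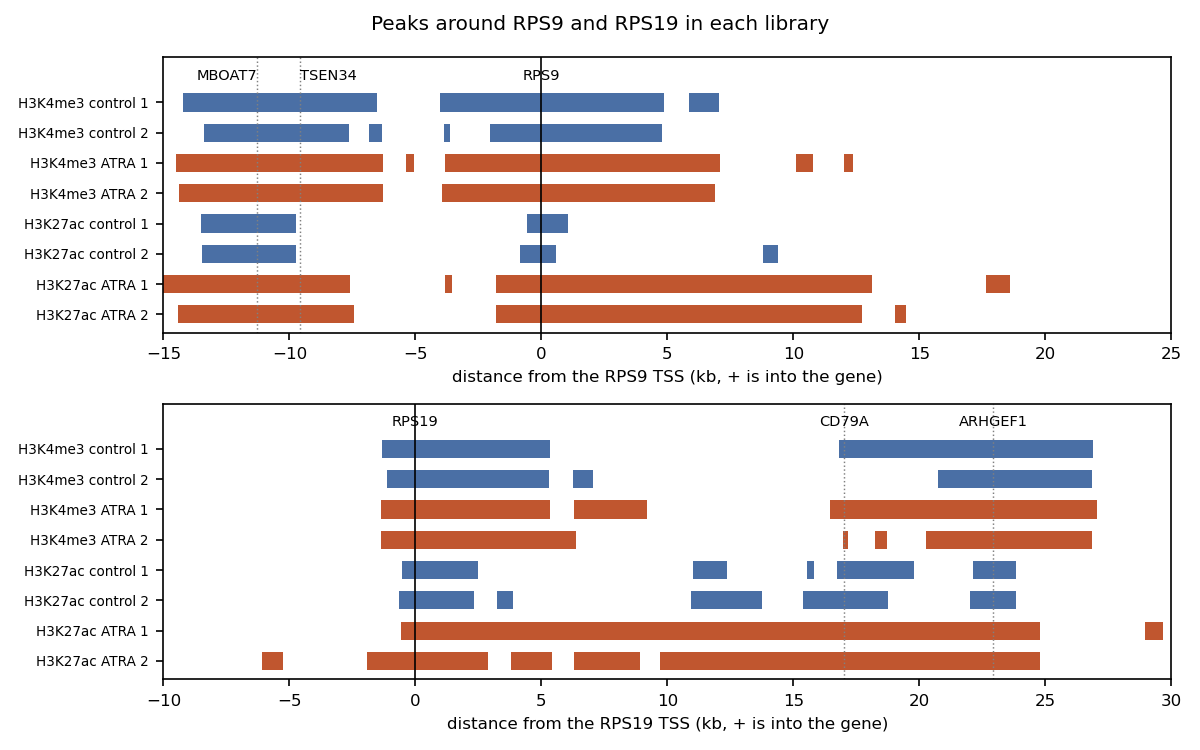
Peaks of both marks around RPS9 and RPS19 in each of the 8 libraries, by distance from the TSS (kb, positive into the gene), blue for control and orange for ATRA; dotted lines are the starts of neighboring genes. The H3K27ac peak at RPS9 ends 1054 and 572 bp into the gene in control and 13112 and 12723 bp in ATRA, and at RPS19 the ATRA libraries cover 24776 and 22158 bases of the 25 kb downstream.

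Among the other genes wider in both ATRA libraries, RPS27A, which encodes ubiquitin fused to a small-subunit protein, had 2538 and 4786 bp in control and 6995 and 7889 bp in ATRA (1.02). There the ATRA peaks reached 5556 and 6099 bp upstream and 1438 and 1789 bp into the gene. The start of CLHC1, at -395 bp, lay under the peak in all 4 libraries. The control peaks began 730 and 1687 bp upstream, and control replicate 2 had a separate peak of 2254 bp farther upstream. RPS15A had 1055 and 1080 bp in control and 1201 and 3695 bp in ATRA (1.20), so that most of its change came from ATRA replicate 2. RPL38 had 1180 and 1045 bp in control and 1511 and 2459 bp in ATRA (0.84). No H3K27ac TSS peak of RPS27A, RPS15A or RPL38 passed a −log10 q of 5 in any library. RPS9, RPS19 and RPL38 were the members wider in both marks, and RPL3 was narrower for H3K4me3 and wider for H3K27ac (0.40). Calls in both marks were not counted over all genes, so no general share can be set beside them. After subtraction of the library medians only RPS9 was wider in both marks. RPL3 was then still narrower for H3K4me3 but no longer wider for H3K27ac.

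RPL8 and RPL36, both of the large subunit, were among the members narrower in both ATRA libraries. RPL8 had 2785 and 3319 bp in control and 1404 and 2196 bp in ATRA (-0.76), and RPL36 1597 and 1560 bp in control and 973 and 1165 bp in ATRA (-0.56). The widest H3K27ac peaks after RPS19, RPS9 and RPS27A were at RPL27A and RPL13A. The narrowest was at RPL39, with 640 and 473 bp in control and 354 and 823 bp in ATRA under an H3K4me3 peak of 7064 to 8363 bp. RPS4X, RPS7, RPL36 and RPS24 followed.

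The promoter sequences can be set beside these widths. The 69 members with a pyrimidine run of at least 8 bases and an H3K4me3 peak in all 4 libraries had a median of their mean widths of 7112.5 bp (3685.75 to 19904.25 bp), and the 9 with a shorter run of 6300.25 bp (1898.5 to 11448 bp). RPL3L and RPL10L, at which no H3K4me3 peak was called, had runs of 5 and 4 bases. Of the 4 copies, RPL39L had the narrowest H3K4me3 peaks of all members and RPS27L the largest change of those that did not overlap, and both had runs under 5 bases. The ranges of both classes overlapped.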

How the data were processed

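Broad peaks of H3K4me3 and H3K27ac in HL-60 cells were analyzed from 8 libraries. Per the study's methods and the submitters' processing notes, adapters were trimmed (cutadapt), Bowtie placed the reads on hg19, and MACS2 called broad peaks library by library, with no fragment model. Versions and the handling of reads that match several places are not given in the sources used here. The authors deposited, for each peak, its position, a −log10 q, and fold and −log10 p columns. The last 2 columns contain impossible values and were left out, and the −log10 q served only as a filter (5). Depth is unknown, so no counting interval could be given.

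For each of 20090 protein-coding genes on chromosomes 1 to 22 and X, a peak within 500 bp of the canonical transcript's start was taken. It was the peak that covered the start, or otherwise the nearest one, and its width was used. Medians and shares were compared between conditions with exact two-sided permutation tests over libraries, whose smallest p is 0.333 (0.5 for 2 pairs). Labels do not say whether replicates were separate cultures, so a p measures the spread between these libraries. Peak names carry 1 tag for the same-numbered ATRA and control libraries of a mark, and the log2 differences between replicates 1 and 2 correlated between conditions over genes (Pearson's r = 0.19 over 10532 genes for H3K4me3 and 0.37 over 6457 for H3K27ac), so numbers were read as pairs. A gene was called wider or narrower where both ATRA libraries lay above or below both control libraries. The script was tested on simulated peak lists. The members and lists were chosen with earlier results of these data known. Named members are, for each mark, the 5 widest and 5 narrowest, the 5 largest changes without overlap in each direction, those lacking a peak, and members chosen for their roles. Others were named after their values were seen, and a few items are not reported here. Sequences came from GRCh37, with Python 3.11.15, numpy 2.4.6, pandas 2.3.3, scipy 1.17.1 and matplotlib 3.10.9.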

Additional observations from a re-analysis of the deposited data

How the results depend on the processing

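The counts of wider and narrower members depended on the scaling of widths between libraries. With the median log2 width of all TSS peaks subtracted in each library, the difference of the medians, ATRA minus control, was -0.18 for H3K4me3 and -0.19 for H3K27ac, the opposite sign to the unscaled values, and 3 and 7 members were wider and 40 and 22 narrower. Of all genes, 18.3% and 17.8% were then wider and 24.6% and 18.8% narrower. Without scaling, the member medians differed by 0.012 for H3K4me3 and 0.17 for H3K27ac. The medians over all genes with a peak in all 4 libraries differed by 0.20 and 0.39. With the replicate block, that is within paired libraries, 23 members were wider and 11 narrower for H3K4me3, and 27 and 10 for H3K27ac. That criterion is less strict, and by it 54.8% and 8.34% of all genes were wider and narrower for H3K4me3 and 56.6% and 10.7% for H3K27ac. Members whose peak holds no other start had an H3K4me3 difference of -0.0059, and 8 of them were wider for H3K27ac. With bases under peaks within 2500 bp in place of widths, 7 members were wider for H3K4me3, and H3K27ac was below H3K4me3 by -0.83 in control and -0.66 in ATRA on the log2 scale, where the window limits both. With peaks of a −log10 q of at least 5, the H3K4me3 share was 1.85 percentage points higher in ATRA. H3K27ac minus H3K4me3 then came to -0.74 in ATRA, over 1 gene, and no H3K27ac comparison of widths between conditions could be made. Where the peak had to cover the start base, 0 members were narrower for H3K27ac. The counts with no other start, within 2500 bp and with the start base covered were not taken over all genes. They describe the members alone.

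Without each library in turn, the H3K4me3 difference ranged from -0.051 to 0.075 and the H3K27ac difference from -0.071 to 0.40. It was negative without control replicate 2 or ATRA replicate 2 for H3K4me3 and without control replicate 1 or ATRA replicate 2 for H3K27ac. With 3 libraries the criterion for a call is less strict, and 20 to 47 members were wider and 8 to 34 narrower for H3K4me3, and 18 to 43 and 4 to 27 for H3K27ac. All genes were not counted by that criterion, so these counts cannot be set against a general share. The share of members with H3K27ac differed by -2.47 to 0 percentage points, and that with H3K4me3 by 0. H3K27ac minus H3K4me3 ranged from -1.75 to -1.25 in control and from -1.56 to -1.14 in ATRA. Leaving out RPS9 and RPS19, an alternative chosen after seeing the data, gave H3K4me3 and H3K27ac differences of 0.0096 and 0.14 and 13 wider members for each mark. By the same criterion 42.2% and 36.1% of all genes were wider. The unknown depth sets which peaks could be called and how far they reach, and its part in the widths was not tested.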

Other observations

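The other gene lists can be described for H3K27ac as well. Of the 32 translation factor and other TOP genes with an H3K27ac TSS peak in all 4 libraries, 3 were wider and 1 narrower in both ATRA libraries than in both control libraries, and their median log2 change was 0.0046. Of 64 mitochondrial ribosomal protein genes, 20 were wider and 3 narrower, with a median change of 0.22. Of 24 proteasome genes, 6 were wider and 2 narrower (0.16), and of 38 genes of ribosome assembly, 14 were wider and 3 narrower (0.27). The cytosolic ribosomal protein genes had 15 wider and 3 narrower of 75 with a median of 0.11. Of all 6457 genes with such a peak in all 4 libraries, 36.1% were wider and 4.77% narrower, with a median of 0.35. The differences between these lists and all genes were not tested. Over the 75 members with both peaks in all libraries, the changes of the 2 marks were only loosely related (Spearman's rho = 0.26, Pearson's r = 0.29, a description over genes of the same samples).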
